A study of Mus musculus with 12 samples.

Results

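The retinas of 5xFAD mice were compared with those of WT mice at 1 month of age in 6 of the 12 libraries of a study of whole mouse retina, the 3 labelled 5xFAD and the 3 labelled WT at that age. Libraries were chosen by the genotype and age in their labels, and all genes with enough counts were tested, 16233 of 55487. Ribosomal protein, respiratory chain and synapse gene lists are not described. The WT animals were C57BL/6J. The 5xFAD animals carry the strain label Tg6799, a line with human transgenes, APP among them, that hold familial Alzheimer disease mutations and are driven by the Thy1 promoter, which is active in neurons. No human transgene row was analysed here, and whether reads of the transgenes were counted in mouse rows such as App or Thy1 was not tested. Polyadenylated RNA was isolated with poly-T beads and prepared with a TruSeq RNA kit, which does not mark the strand. The study set out to compare transcript and retained-intron expression between the genotypes. The other 6 libraries, 3 of WT and 3 of 5xFAD retina at 6 months, entered the fits for the estimate of the spread and were used to show where 1 month differed. The labels give neither the sex nor the litter nor the time of day of collection, and they do not say that libraries of a group came from separate animals. The p-values therefore measure the spread between these samples, which may be technical.

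The retina turns light into a neural signal. Rods and cones hold the phototransduction cascade in their outer segments and signal through a calcium channel at a ribbon synapse to bipolar cells, horizontal and amacrine cells shape the signal, and ganglion cells carry it to the brain. Müller glia span the layers, the pigment epithelium behind the photoreceptors recycles the retinoid of the visual pigment, and basement membranes and the vitreous border the tissue with collagen networks. The retina also keeps a circadian clock of its own. At 1 month the mouse retina has its adult layers, and the brain of this line has not yet reached the age of abundant amyloid plaques.

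The 6 libraries held between 10928024 and 11699788 expected counts each, and 17491 to 19284 genes had a count. Levels are given as CPM, counts scaled to a common library size, in the order of replicates 1, 2 and 3. The tissue carried the markers of its label: the rod transducin gene Gnat1 read 10666, 11715 and 10985 CPM in WT against 11983, 11309 and 11455 in 5xFAD. The Müller glia gene Glul read 1831, 1869 and 1959.5 in WT against 1816, 1958 and 2019.6 in 5xFAD. The genotypes differed in the length of the transcripts behind the counts. The mean transcript length was 3790, 3553 and 3784 nt in WT and 4219, 4249 and 4240 nt in 5xFAD, so all 3 5xFAD libraries lay above all 3 WT libraries. Of 3 equal classes of tested genes by length, the shortest took 28.3% ± 2.16 of counts in WT and 21.1% ± 0.248 in 5xFAD (SD, n = 3), and the longest took 42.7% ± 1.99 and 50.9% ± 0.197. Mitochondrially encoded genes took 4.96% ± 0.821 and 3.05% ± 0.107 (SD, n = 3). For each of these measures the exact permutation test gave p = 0.1, the smallest that 3 against 3 libraries allow. The share of short transcripts was highest in WT replicate 2, at 30.8%. In whole-tissue RNA, fewer cells of a type and less RNA per cell cannot be told apart.

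Mouse App, whose human counterpart is one of the transgenes, read 276, 233 and 323 CPM in WT against 317, 352 and 359 in 5xFAD. The ranges overlapped, since WT replicate 3 lay above 5xFAD replicate 1, and the log2 fold difference was 0.22 ± 0.09 (adjusted p 0.125) with the length trend removed. Without that correction it was 0.31 ± 0.10 (adjusted p 0.0293). Thy1, a ganglion cell surface gene whose promoter drives the transgenes, read 154, 179 and 168 CPM in WT against 165, 161 and 174 in 5xFAD, also overlapping (adjusted p 0.123). Values after ± on a log2 fold difference are approximate standard errors, and a positive value means more in 5xFAD.

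The number of genes that differed depended on whether transcript length was taken into account. Without a length correction, edgeR's quasi-likelihood test with Benjamini-Hochberg adjustment called 3178 of 16233 tested genes (19.6%) at an adjusted p below 0.05, 1732 higher (10.7%) and 1446 lower (8.91%) in 5xFAD. With library-size scaling alone the split was 1588 higher and 1627 lower. Of 10 equal classes by length, in that with the shortest transcripts (median 768 nt), 0.74% were higher and 25.1% lower. In that with the longest (median 7370 nt), 48.8% were higher and 1.79% lower. Taking out each library's trend of expression on transcript length gave 1504 called genes (9.27%), of which 620 were higher (3.82%) and 884 lower (5.45%). Shares in the longest class became 10.7% and 10.3%, and those in the shortest 0.986% and 4.99%. Calls therefore remained more frequent among long transcripts, at 21% of the longest class and 5.98% of the shortest. The 9.27% of all tested genes, beside which gene lists are set below, is not matched for length. Of the genes called, 1131 passed in both fits in the same direction and 4 in opposite directions. Another 2043 passed only without the correction, and 369 only with it, 33 of them higher and 336 lower. The count of 1504 became 818 when WT replicate 2 was left out, 957 when 5xFAD replicate 1 was, and 884 when 5xFAD replicate 2 was. The count of 3178 became 1893 when WT replicate 2 was left out and 2097 when 5xFAD replicate 2 was. All values below are from the fit with the length trend removed unless the other is named, and "rose" and "fell" are used of genes called in it.

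**Figure D1:**
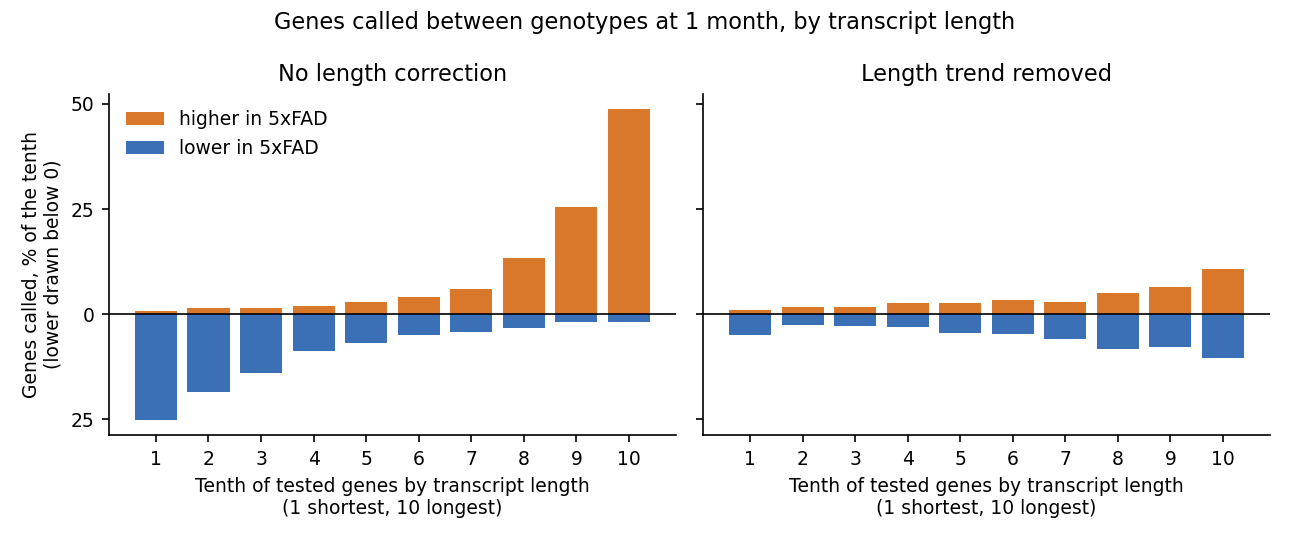
Share of tested genes called higher (above 0) and lower (below 0) in 5xFAD retina at 1 month, in percent, for 10 equal classes of genes ordered by transcript length, without a length correction (left) and with the length trend removed (right). The left panel runs from 25.1% lower in the shortest class to 48.8% higher in the longest, and the right panel holds similar shares in both directions in the longest class (10.7% and 10.3%).

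Among called genes that averaged 5 CPM or more and whose groups did not overlap (28.1% of all tested genes did not overlap in length-corrected CPM), and with predicted genes left out, the 8 largest increases were in Cryaa, described with the lens genes, and in Kctd16, Kcnh5, Glra1, Lrch4, Xkr7, Hipk2 and Shc3. The potassium channel gene Kcnh5 read 5.29, 2.52 and 3.68 CPM in WT against 24.1, 25.8 and 27.7 in 5xFAD. Every 5xFAD library was far above the highest WT library, and the log2 fold difference was 2.60 ± 0.29 (adjusted p 5.56e-06). Kctd16, an auxiliary subunit of GABA-B receptors, read 1.34, 2.88 and 2.4 CPM in WT against 14.6, 15.5 and 10.2 in 5xFAD (2.7 ± 0.41, adjusted p 1.55e-04). The protein kinase gene Hipk2 read 23.7, 14 and 37.9 CPM in WT against 109.8, 140.1 and 139.8 in 5xFAD (1.99 ± 0.31, adjusted p 0.00401). Both were low in all WT libraries and high in all 5xFAD libraries. Xkr7, of the XK-related family, rose as well (2.05 ± 0.38), and so did the glycine receptor gene Glra1 (2.43 ± 0.65, adjusted p 0.0419), Lrch4 (2.28 ± 0.45) and the neuronal adaptor gene Shc3 (1.95 ± 0.47). The calls of these last 3 did not hold without WT replicate 2 (adjusted p 0.0636 for Lrch4 and 0.0696 for Shc3). The Shc3 call was also lost without WT replicate 1, and the Glra1 call without any library but WT replicate 3, with adjusted p up to 0.14.

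The largest decreases were in collagen genes, in the pigment epithelium genes Ttr and Rgr and in Ap1g2 and Fabp4. Ap1g2, a subunit of the AP-1 clathrin adaptor, read 7.65, 8.54 and 7.71 CPM in WT against 2.26, 1.66 and 3.05 in 5xFAD (-1.73 ± 0.33, adjusted p 0.00156). Fabp4, a fatty acid binding protein of adipocytes, macrophages and capillary endothelium, read 23.8, 18.2 and 19.3 CPM in WT against 6.51, 7.64 and 7 in 5xFAD (-1.60 ± 0.20, adjusted p 2.32e-05). In both genes all WT libraries lay above all 5xFAD libraries, but the choice required groups apart in length-corrected CPM, so this is no added support. In plain CPM 37.6% of all tested genes did not overlap. The same requirement held for genes chosen by smallest p in each length class. Among these are Spag5, Bub1b, Col6a1, Col9a1, Impg1, Nr2e3, Arr3, Grin2b, Sfpq and Mir124a-1hg. Some called genes lay off the length trend in the opposite direction. Of 5404 tested genes in the shortest of the 3 length classes 85 rose (1.57%, beside 3.82% of all tested genes), and 71 without the correction. Of 5404 in the longest 458 fell (8.48%, beside 5.45%), and 132 without it. Removing the trend brings the median log2 fold difference of each class near 0 (-0.08 in the shortest, -0.01 in the longest). These calls are therefore relative to genes of similar length. Among short transcripts the ubiquitin ligase gene Rnf130 (1.18 ± 0.13), Ubap1l (0.96 ± 0.11) and the sodium-proton exchanger gene Slc9a7 (1.77 ± 0.21) rose, the last from 11.1, 11.3 and 13.8 to 39.6, 36.2 and 37 CPM. Among long transcripts the mitotic spindle gene Spag5 fell from 144, 139 and 118 to 74.1, 61.5 and 70.6 CPM (-1.09 ± 0.10, adjusted p 6.47e-07). Bub1b, a spindle checkpoint kinase gene of the middle class, fell as well (-1.04 ± 0.14).

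Collagen chain genes were lower in 5xFAD retina across several collagen types. Of 44 annotated collagen chain genes 40 could be tested, and 25 of them fell (62.5%, beside 5.45% of all tested genes), none rose and 15 did not pass. Their median log2 fold difference was -1.02, beside -0.05 over all tested genes, and without the length correction 21 fell with a median of -0.75. The group was put together after its values had been seen. The 25 genes encode chains of basement membranes (type IV), of microfibrils around cells (type VI), of cartilage and vitreous fibrils (types II, IX and XI) and of other types, and their log2 fold differences ran from -2.49 to -0.62.

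Col6a1 (chromosome 10, 76708792 to 76726168, GRCm38), a chain of type VI collagen, had the smallest adjusted p of all tested genes with the length trend removed. It read 194, 200.3 and 205 CPM in WT against 72.5, 74.7 and 83.2 in 5xFAD. The 3 libraries of each genotype lay close together and far from the other genotype, with a log2 fold difference of -1.54 ± 0.09 (adjusted p 5.66e-11). The type VI chains Col6a2 (-1.29 ± 0.22), Col6a4 (-1.33 ± 0.24) and Col6a6 (-2.49 ± 0.36) fell with it. Col27a1, a fibrillar collagen of cartilage, read 69.7, 73 and 80 CPM in WT against 27.7, 25.3 and 30.3 in 5xFAD (-1.78 ± 0.15, adjusted p 4.07e-07), again without overlap. Col11a1, a chain of type XI collagen, read 46.7, 38.6 and 37.9 CPM in WT against 17.2, 19.7 and 16.2 in 5xFAD (-1.57 ± 0.16). Col9a1, of the type IX collagen that coats vitreous fibrils, read 134, 116 and 103 CPM in WT against 43.1, 52.5 and 57.2 in 5xFAD (-1.24 ± 0.14), with every WT library above every 5xFAD library. Of the basement membrane chains Col4a4 (-1.63 ± 0.27) and Col4a5 (-0.95 ± 0.17) fell further than Col4a1 (-0.70 ± 0.15) and Col4a2 (-0.66 ± 0.12). Without the length correction Col4a1 and Col4a2 did not pass (adjusted p 0.0985 and 0.0712).

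**Figure D2:**
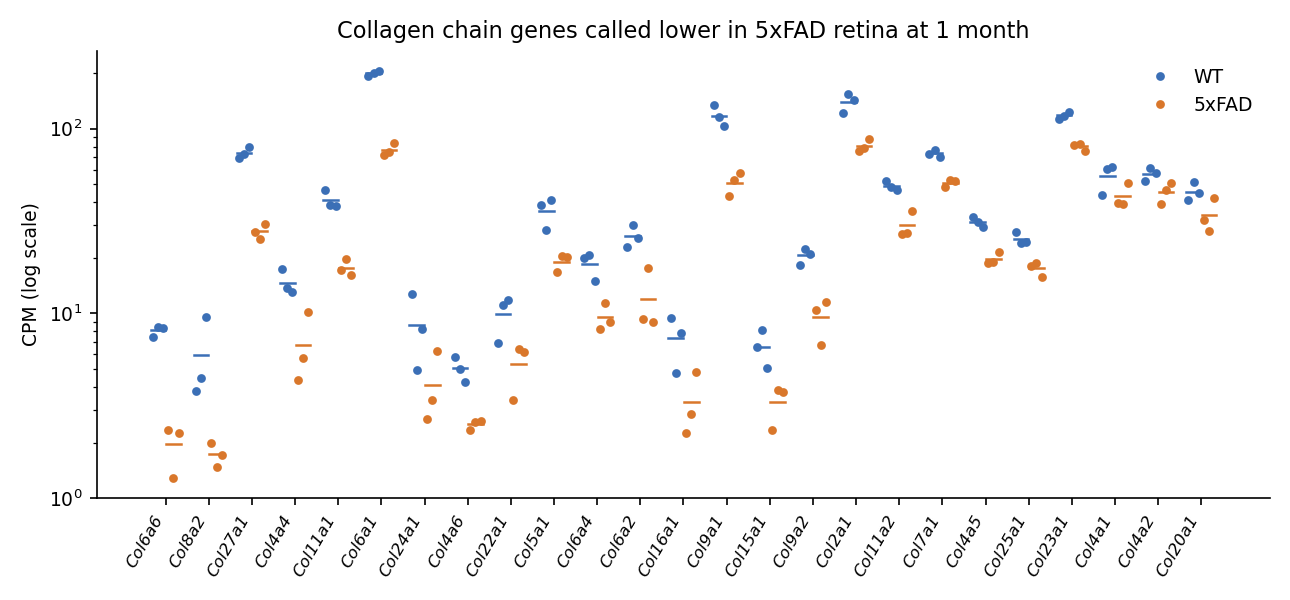
CPM (log scale) of the 25 collagen chain genes called lower in 5xFAD retina at 1 month, with 1 point per library, WT in blue and 5xFAD in orange, and bars at the group means. In most genes the 3 points of a genotype stay clear of the other, as in Col6a1 at 194 to 205 CPM in WT and 72.5 to 83.2 in 5xFAD, and genes at the right, Col4a1 and Col20a1 among them, overlap before the length trend is removed.

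All collagen genes together took 0.132%, 0.131% and 0.134% of the counts in WT and 0.0684%, 0.0728% and 0.0813% in 5xFAD (exact permutation p = 0.1, the smallest possible). Each 5xFAD library was lower than each WT library. Of 14 tested markers of fibroblasts and sclera, tissue that can adhere to a dissected retina, 3 fell and none rose. The list summed to 289 to 298 CPM in WT and 128 to 146 in 5xFAD. Those 3 were Col6a1, Col5a1 and Col6a2, which are part of the collagen result itself, so the list gives no separate view of it. The list's median log2 fold difference was -0.55. Of its other 11 genes Pdgfra had the highest mean, 8.69 CPM in WT and 11.7 in 5xFAD. Dcn stood at 1.01, 0 and 0.428 CPM in WT against 0.694, 0 and 0 in 5xFAD and Col1a1 at 2.86, 2.07 and 3.68 in WT against 1.04, 2.48 and 2.24 in 5xFAD, and Lum had too few counts to test. The part of adhering tissue in the collagen result was not tested. The interaction of genotype and age passed in edgeR in 22 of the 25 genes and in 15.3% of all tested genes, but the 25 were chosen by their difference at 1 month, which that contrast contains, so nothing is read from this count. At 6 months 1 of the 25 was called, Col4a4, which was higher (0.85, adjusted p 0.0462). Leaving out 1 library at a time left between 18 and 24 collagen genes called lower. The calls of Col2a1, Col4a6, Col7a1, Col8a2, Col15a1, Col16a1, Col20a1 and Col24a1 were each lost without at least 1 of the 6 libraries, with adjusted p up to 0.138 for Col20a1 and 0.161 for Col15a1.

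Other matrix genes did not share one direction. Of the list of laminins, basement membrane and matrix genes 40 were tested. Of these 4 rose, 12 fell and 24 did not pass (40% called, beside 9.27% of all tested genes), and 9 of the 12 were collagens. Impg1 and Impg2, proteoglycans of the matrix between photoreceptors, rose. Impg1 read 257, 233 and 259 CPM in WT against 501, 426 and 462 in 5xFAD (0.83 ± 0.09, adjusted p 4.98e-06), with no overlap, and Impg2, named after its value was seen, changed by 0.30 ± 0.08 (adjusted p 0.0156). Agrn, the heparan sulfate proteoglycan agrin of basement membranes, fell from 204, 208 and 217 to 155, 165 and 171 CPM (-0.73 ± 0.11, adjusted p 2.40e-04). The Impg2 call was lost without WT replicate 3 or 5xFAD replicate 1 (adjusted p up to 0.0915), and with WT replicate 2 left out 2 genes of the list were called higher.

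Genes of the circadian clock made up, the collagens aside, the list of over 5 tested genes with the highest share of called members, 8 of 19 (42.1%, beside 9.27% of all tested genes): 7 fell, Rora rose and 11 did not pass. Their median transcript length was 4128 nt, and 13.1% of the length class from 3792 to 4571 nt were called. In the clock, the activators CLOCK and ARNTL drive Per, Cry, Nr1d and the PAR bZIP genes Dbp, Tef and Hlf through E-boxes, and D-boxes and ROR elements add further arms. Without the length correction 4 fell and 3 rose. Promoter sequences are given for 4 of the genes that fell, chosen because each holds a copy of an element of these arms. They are RefSeq sequences on GRCm38.p6, all on the minus strand and printed 5′ to 3′. Each starts 250 bases before the RefSeq gene start and leaves out bases inside any annotated transcript of the gene. Capitals mark matches on either strand to the E-box CACGTG, the D-box TTATGTAA and the ROR element core AGGTCA, and no sequence shown holds more than 1 of the 3 kinds.
Per3, chr4:151044666-151044915: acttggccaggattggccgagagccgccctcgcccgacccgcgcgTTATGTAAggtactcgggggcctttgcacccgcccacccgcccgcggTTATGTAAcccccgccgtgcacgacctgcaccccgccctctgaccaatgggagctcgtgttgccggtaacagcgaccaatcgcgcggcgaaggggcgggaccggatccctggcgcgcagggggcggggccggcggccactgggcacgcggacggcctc
Ciart, chr3:95882252-95882478: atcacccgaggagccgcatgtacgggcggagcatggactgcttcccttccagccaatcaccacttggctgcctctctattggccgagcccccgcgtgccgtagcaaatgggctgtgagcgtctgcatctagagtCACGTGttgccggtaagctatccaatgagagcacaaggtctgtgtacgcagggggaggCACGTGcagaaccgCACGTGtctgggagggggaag
Bhlhe41, chr6:145865559-145865670: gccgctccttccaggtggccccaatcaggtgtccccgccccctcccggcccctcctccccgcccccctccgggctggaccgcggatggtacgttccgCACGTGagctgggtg
Nr1d2, chr14:18239128-18239356: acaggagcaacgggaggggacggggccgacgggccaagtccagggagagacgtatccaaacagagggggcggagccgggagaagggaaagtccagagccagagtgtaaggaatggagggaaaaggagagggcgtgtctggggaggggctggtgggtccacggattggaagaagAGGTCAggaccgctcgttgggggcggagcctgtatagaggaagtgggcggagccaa
The Per3 sequence holds 2 D-boxes, Ciart 3 E-boxes, Bhlhe41 1 E-box and Nr1d2 1 ROR element core. In windows of 250 bases before the start, 6.02% of 32851 RefSeq promoters hold the E-box, 0.819% the D-box, 14% the ROR core and 19.9% at least 1 of the 3. Of the 6 clock genes that fell and have a RefSeq promoter, 5 hold at least 1, and of the other 11 clock genes 3 do. Rorb fell with none of the elements in its window. Cry1 (E-box), Per1 (E-box and ROR core) and Nfil3 (ROR core) hold matches and did not pass (adjusted p 0.659, 0.465 and 0.528). The counts are of whole windows, and those of Tef, Per1 and Rorb lie inside annotated transcripts. Whether the elements bear on the falls was not tested. These are matches of letters and do not show that a factor was bound.

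The negative-arm gene Per2 (chromosome 1, 91415982 to 91459324) read 50.2, 46.1 and 46.2 CPM in WT against 30.2, 32.4 and 30.1 in 5xFAD. Every WT library was above every 5xFAD library, and the log2 fold difference was -0.92 ± 0.12 (adjusted p 2.58e-05). Nr1d2, the nuclear receptor REV-ERB beta that represses through ROR elements, read 326, 311 and 268 CPM in WT against 257, 237 and 228 in 5xFAD (-0.52 ± 0.09, adjusted p 3.84e-04), again with no overlap. Per3 read 169.7, 179.5 and 159.8 CPM in WT against 138, 144 and 156 in 5xFAD (-0.47 ± 0.10, adjusted p 0.00257), and the retinoid-related receptor gene Rorb read 387, 348 and 326 in WT against 358, 349.7 and 308 in 5xFAD (-0.52 ± 0.09, adjusted p 5.06e-04). Both passed only with the length trend removed, and Rorb overlapped in CPM. Ciart, a repressor of CLOCK and ARNTL, Bhlhe41, another E-box repressor, Tef and Rora were named after their values were seen. Ciart read 19.1, 24.5 and 19.3 CPM in WT against 11.8, 11.6 and 5.65 in 5xFAD (-0.87 ± 0.27, adjusted p 0.0478), Bhlhe41 84.8, 110.0 and 94.9 in WT against 86.4, 87.8 and 83.5 in 5xFAD (-0.48 ± 0.12, adjusted p 0.0101). Tef changed by -0.34 ± 0.08 and Rora, an activator at ROR elements, by 0.42 ± 0.10 (adjusted p 0.00869 and 0.00806). The ranges of Ciart did not overlap, and those of Bhlhe41 overlapped before length was taken into account.

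The calls of Per2, Nr1d2, Rorb and Per3 were kept without any 1 of the 6 libraries. That of Rora was lost without 5xFAD replicate 1 (adjusted p 0.0504), Tef without WT replicate 3 (0.0618), Bhlhe41 without WT replicate 2 (0.116) and Ciart without any 1 of the 6 (up to 0.222). Among members that did not pass, Arntl read 103, 98.5 and 97.9 CPM in WT against 99.3, 89.3 and 103 in 5xFAD, with overlapping groups. Clock read 146, 105 and 140.1 CPM in WT against 226, 191 and 196 in 5xFAD, apart in CPM and overlapping once length was taken into account. Dbp read 130.4, 195 and 167 CPM in WT against 90.4, 106 and 96.5 in 5xFAD without overlap, and its spread within WT was wide (-0.54 ± 0.24, adjusted p 0.212). None of 20 immediate early genes, which respond to light and activity within minutes to hours, passed in either direction, with or without the length correction. The smallest adjusted p among them was that of Nr4a1 (0.153).

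**Figure D3:**
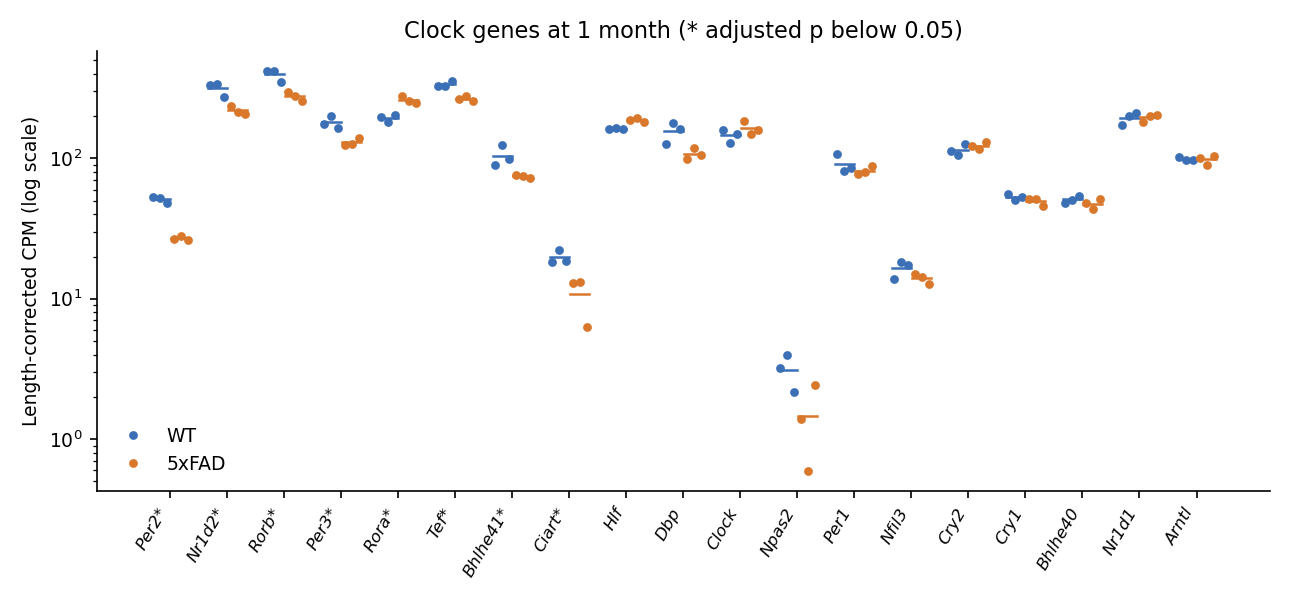
Length-corrected CPM (log scale) of the 19 clock genes in each library at 1 month, WT in blue and 5xFAD in orange, with bars at the group means and an asterisk where the adjusted p is below 0.05. Per2, Nr1d2, Rorb, Per3, Tef, Bhlhe41 and Ciart lie lower in 5xFAD, Rora higher, and the 11 genes to the right did not pass.

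Genes of the pigment epithelium and choroid, tissue that borders the neural retina, were lower in 5xFAD: 6 of 16 tested fell (37.5%, beside 5.45% of all tested genes), none rose and 10 did not pass. Rpe65, the isomerohydrolase that regenerates the visual chromophore, read 10.6, 4.13 and 10.5 CPM in WT against 1.04, 1.01 and 1.7 in 5xFAD. All 3 5xFAD libraries lay below the lowest WT library, replicate 2 (-2.57 ± 0.46, adjusted p 7.89e-04). Slc16a8, the lactate transporter of the pigment epithelium, read 5.88, 3.41 and 5.56 CPM in WT against 0, 0.644 and 0.987 in 5xFAD (-3.00 ± 0.74, adjusted p 0.0106). Ttr, which encodes transthyretin, a carrier of retinol and thyroxine, read 39.8, 30.2 and 58.9 CPM in WT against 7.99, 6.26 and 12.1 in 5xFAD (-2.02 ± 0.42, adjusted p 0.015). Both were higher in every WT library than in any 5xFAD library. Rlbp1, the retinaldehyde binding protein of pigment epithelium and Müller glia, was far more abundant and fell by less, from 381, 425 and 407 to 278, 301 and 298 CPM (-0.35 ± 0.07, adjusted p 0.0031). The opsin-like Rgr (-1.99 ± 0.45) and Enpp2 (-0.51 ± 0.13) were the other 2. Rgr and Ttr lost their calls without 5xFAD replicate 1 or 5xFAD replicate 2 (adjusted p up to 0.0856 and 0.0721), and Enpp2 without WT replicate 1, WT replicate 3 or 5xFAD replicate 1 (up to 0.104). With 5xFAD replicate 1 left out 3 genes of the list were called lower. The list summed to 1042 to 1175 CPM in WT and 895 to 958 in 5xFAD. This sum includes Rlbp1, which with Rgr is also counted among the Müller glia genes, so it is not of pigment epithelium transcripts alone. Without the length correction 7 genes of the list were called lower and 2 higher. The 5 testable melanin genes summed to 16 to 20.7 CPM in WT and 8.84 to 15.7 in 5xFAD, and none of them passed. The part of the amount of adhering tissue in these differences was not tested.

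Cryaa, the alpha-A crystallin gene of the lens, moved the other way. It read 0.084, 0.27 and 0 CPM in WT against 4.51, 39.3 and 12.7 in 5xFAD (7.54 ± 1.24, adjusted p 0.00317). The WT libraries were at or near 0, so the size of the fold rests on few counts, and the 5xFAD libraries differed widely among themselves, with replicate 2 highest. Of the 22 lens genes 3 had enough counts to test. Cryab, which glia also express, read 21.5, 27.6 and 24.4 CPM in WT against 17.5, 29.2 and 18.7 in 5xFAD with overlapping groups.

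Photoreceptor genes moved in both directions, more of them up. Of 36 genes of rod phototransduction and discs, 7 rose, 1 fell and 28 did not pass (22.2% called, beside 9.27% of all tested genes). Gucy2f, 1 of the 2 retinal guanylate cyclases that restore cGMP after light, read 193, 158 and 201 CPM in WT against 458, 411 and 438 in 5xFAD. Its groups lay far apart (0.82 ± 0.10, adjusted p 1.04e-05). Nr2e3, the nuclear receptor that holds rods in their fate, read 562, 494 and 518 CPM in WT against 699, 701 and 759 in 5xFAD (0.60 ± 0.08, adjusted p 3.25e-05), and Pde6a, the alpha subunit of the rod phosphodiesterase, 2064, 1888 and 2128 in WT against 3043, 2822 and 2997 in 5xFAD (0.35 ± 0.06, adjusted p 7.63e-04). Neither overlapped. Rcvrn, the calcium sensor recoverin, read 715, 936 and 748 CPM in WT against 826, 757 and 755 in 5xFAD with overlap and passed only with the length trend removed (0.28 ± 0.07, adjusted p 0.0177, against -0.04 ± 0.10 and 0.834 without). The other called members, named after their values were seen, were Rgs9 (1.17 ± 0.24), which speeds transducin's recovery, the transducin beta gene Gnb1 (0.22 ± 0.06), the second cyclase Gucy2e (0.23 ± 0.07), all higher, and the transducin gamma gene Gngt1 (-0.31 ± 0.10), lower. The calls of Gucy2f, Nr2e3 and Pde6a were kept without any 1 of the 6 libraries, and those of the other 5 were each lost without at least 3 of them (adjusted p up to 0.11 for Rcvrn, 0.0725 for Rgs9, 0.122 for Gnb1, 0.132 for Gucy2e and 0.224 for Gngt1). With 5xFAD replicate 1 left out 3 of the 36 were called higher.

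The 36 rod genes together summed to 85176 to 90191 CPM in WT and 93716 to 100144 in 5xFAD. Of 17 cone genes 3 rose and 1 fell (23.5%). Arr3, cone arrestin, which quenches the activated cone opsins, read 484, 464 and 365 CPM in WT against 256, 229 and 192 in 5xFAD, so every 5xFAD library was below every WT library (-0.72 ± 0.10, adjusted p 9.90e-05). The genes that rose were the cone exchanger Slc24a2 (0.44 ± 0.11), Ccdc136 (0.32 ± 0.09) and the short-wave opsin Opn1sw (0.27 ± 0.08), and all 3 calls were lost without WT replicate 2 and without 5xFAD replicate 2 (adjusted p up to 0.0927, 0.131 and 0.223). The Ccdc136 call held only without WT replicate 3, and the Opn1sw call only without WT replicate 1 or 5xFAD replicate 3. Of 52 genes of the photoreceptor cilium none rose and 3 fell (5.77%, near the 5.45% of all tested genes), among them Pcdh15 (-0.58 ± 0.11), an Usher syndrome cadherin, which passed only with the length trend removed. With WT replicate 2 left out 1 gene of the cilium list was called lower.

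At the photoreceptor's output, Cacna1f, the pore subunit of the calcium channel that drives release from rods and cones, read 808, 834 and 769 CPM in WT against 559, 551 and 604 in 5xFAD. All WT libraries exceeded all 5xFAD libraries, and the log2 fold difference was -0.81 ± 0.09 (adjusted p 5.99e-06). Its beta subunit gene Cacnb2 went the other way, from 186, 192 and 183 to 252, 247 and 254 CPM (0.34 ± 0.07, adjusted p 0.00411), without overlap. On the bipolar side 3 of 22 genes rose and 2 fell (22.7% called, beside 9.27% of all tested genes). Nyx, the leucine-rich protein nyctalopin of the ON bipolar dendrite, read 6.89, 7.28 and 9.85 CPM in WT against 24, 23.3 and 23.6 in 5xFAD (1.31 ± 0.23, adjusted p 6.66e-04), and Lrit3, which acts with it in placing the TRPM1 channel, 41.3, 43.1 and 48.4 in WT against 74.2, 67.6 and 73.2 in 5xFAD (0.76 ± 0.14, adjusted p 9.69e-04). In both genes every 5xFAD library was above every WT library. Gpr179 (-0.39 ± 0.09) and Rgs11 (-0.41 ± 0.10), which shut off the mGluR6 cascade in the same dendrite, fell. Gpr179 had the opposite sign without the length correction (0.08 ± 0.10, adjusted p 0.641), and both were lost without 5xFAD replicate 1 (adjusted p 0.0542 and 0.0847), Rgs11 also without WT replicate 3.

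Müller glia genes split as well, with 2 of 21 higher and 3 lower (23.8% called, beside 9.27% of all tested genes). The potassium channel gene Kcnj10, which buffers potassium, read 40.1, 36.8 and 42.2 CPM in WT against 59.1, 77.5 and 77.5 in 5xFAD (0.57 ± 0.12, adjusted p 0.0042), and the water channel gene Aqp4 89.2, 71.2 and 79.6 in WT against 118, 127 and 139.7 in 5xFAD (0.44 ± 0.10, adjusted p 0.00575). Both rose with no overlap. Car14, a membrane carbonic anhydrase, fell from 71.9, 71.3 and 77.2 to 38.5, 42.7 and 49.5 CPM (-0.54 ± 0.12, adjusted p 0.00419), along with Rlbp1 and Rgr. None of 22 microglia genes passed, the smallest adjusted p being that of Cx3cr1 (0.103), and the list summed to 432 to 526 CPM in WT and 359 to 382 in 5xFAD. The reactive glia gene Gfap read 11.9, 9.88 and 3.6 CPM in WT against 12.5, 14.8 and 19 in 5xFAD, with all 5xFAD libraries above all WT libraries, and did not pass (adjusted p 0.175). Of 20 endothelial genes 1 rose (5%, beside 3.82% of all tested genes). It was the VEGF receptor gene Kdr, which went from 111, 109 and 106 to 172, 179.8 and 185 CPM (0.41 ± 0.09, adjusted p 0.00663). The endothelial list had a median log2 fold difference of 0.59 and summed to 385 to 443 CPM in WT and 508 to 544 in 5xFAD, and with WT replicate 1 left out 5 of its genes were called higher. Ganglion cell genes gave 1 lower of 22 (4.55%, near the 5.45% of all tested genes), Sncg (-0.47 ± 0.11, adjusted p 0.00968, lost without WT replicate 3 at 0.0649).

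Genes of excitability and adhesion, whose transcripts are long, gave many calls without the length correction and fewer with it. Median lengths were 4816 nt in potassium channels, 4162 in glutamate, GABA and glycine receptors, 5020 in cadherins and 5510 in sodium and calcium channels. With the trend removed 13.1% of the length class from 3792 to 4571 nt were called, and 14.3% of that from 4571 to 5971 nt. Potassium channels went from 20 higher and 1 lower of 46 to 7 and 1 (17.4% called, beside 9.27% of all tested genes). The voltage-gated channel genes Kcna1 (6.72, 5.57 and 6.25 CPM in WT, 16.5, 18.6 and 21 in 5xFAD, 1.44 ± 0.24) and Kcna2 (78.7, 58.6 and 77.7 in WT against 154, 156 and 171 in 5xFAD, 0.61 ± 0.10) rose without overlap of the groups. Kcnt1, a sodium-activated potassium channel, fell from 69.2, 69.3 and 67.4 to 45.5, 42.8 and 52.9 CPM (-0.82 ± 0.11, adjusted p 6.60e-05). Of 43 glutamate, GABA and glycine receptor genes, 5 rose and 1 fell (14% called), against 15 and 0 without the correction. Grin2b, an NMDA receptor subunit whose transcript is among the longest at 23928 nt, read 12.5, 8.45 and 15 CPM in WT against 58.2, 62.2 and 56.9 in 5xFAD. The groups stood far apart, and the log2 fold difference was 1.53 ± 0.17 (adjusted p 5.99e-06) with the trend removed and 2.30 ± 0.24 without. Of 38 cadherins and protocadherins 8 rose and 2 fell (26.3% called), against 19 and 0 without the correction. Pcdh9 (32.9, 33.2 and 39.6 CPM in WT against 74.9, 79.9 and 72 in 5xFAD, 0.80 ± 0.12) and the photoreceptor cadherin Cdhr1 (996, 981 and 929 CPM in WT against 1476, 1395 and 1381 in 5xFAD, 0.36 ± 0.07) were higher. Sodium and calcium channels gave 1 higher and 4 lower of 37 (13.5% called). The shares of this list and of the receptors are near those of genes of their length. There Scn8a (-0.66 ± 0.09, adjusted p 7.19e-05), a sodium channel of axons, fell only with the trend removed. With WT replicate 2 left out, 4 potassium channels and 2 cadherins were called higher, and with 5xFAD replicate 2 left out, 1 receptor gene was.

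The host gene of miR-124, the main neuronal microRNA, stood out among noncoding genes. Mir124a-1hg (chromosome 14, 64587331 to 64593961) read 839.6, 669.6 and 821 CPM in WT against 1747, 1646 and 1649 in 5xFAD. The 3 5xFAD libraries lay close together and far above WT (0.96 ± 0.10, adjusted p 5.58e-06). At 6 months the gene was lower in 5xFAD (-1.0, adjusted p 3.71e-06). These are counts of the polyadenylated host transcript and not of the mature microRNA.

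Splicing factor genes, which bear on the retained introns the study set out to measure, gave 6 higher and 11 lower of 73 (23.3% called, beside 9.27% of all tested genes). Sfpq, a DNA- and RNA-binding protein of paraspeckles, read 242, 209 and 226 CPM in WT against 369.8, 368 and 376 in 5xFAD, and Celf2, a neuronal splicing regulator, 149, 122 and 149 in WT against 258, 264 and 282 in 5xFAD. Both rose with no overlap (0.72 ± 0.09 and 0.60 ± 0.08, adjusted p 2.50e-05 and 6.72e-05). Srsf6, an SR protein, fell from 375, 357 and 352 to 278, 275 and 279 CPM (-0.42 ± 0.07, adjusted p 7.08e-04), and Clk1, a kinase of SR proteins that was named after its value was seen, from 490.2, 394 and 349 to 301, 267 and 242 (-0.51 ± 0.10, adjusted p 0.00228). Srrm4, which promotes neuronal microexons, passed only with the trend removed (-0.49 ± 0.09, adjusted p 8.84e-04).

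Transcripts annotated as retaining an intron took a similar share of all counts in both genotypes. The share was 6.38% ± 0.205 in WT and 6.41% ± 0.0822 in 5xFAD (SD, n = 3, exact permutation p = 0.8). Within genes, the edgeR test of retained-intron against other counts called 140 of 4772 genes (2.93%), 73 with a higher share in 5xFAD (1.53%) and 67 with a lower one (1.4%). The median log2 odds ratio over all tested genes was 0.36, and 64.4% of genes had a positive value. The count was 114 without WT replicate 1 (77 higher and 37 lower) and 118 without WT replicate 3, and it became 3 when WT replicate 2 was left out, and 18, 26 and 38 when 5xFAD replicates 1, 2 and 3 were.

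The genes with the smallest p include abundant photoreceptor genes. In Sag, rod arrestin, the share was 5.46, 5.33 and 6.95% in WT against 17, 17 and 17% in 5xFAD (log2 odds ratio 1.71 ± 0.22, adjusted p 0.0111). In Prph2, peripherin of the disc rim, which was named after its value was seen, it was 2.33, 2.08 and 2.96% in WT against 8.96, 8.54 and 9.08% in 5xFAD (1.96 ± 0.27, adjusted p 0.0111). In both genes the 5xFAD libraries agreed to within 1 percentage point and lay above all WT libraries. Of 18 genes of the rod list that could be tested none was called with a lower share, as were 1.4% of all tested genes. A positive value was found in 13 (72.2%, near the 64.4% of all tested genes). Negative values included those of Gnat1 (-0.68 ± 0.17, adjusted p 0.0622) and Abca4 (-0.59 ± 0.20, adjusted p 0.136). In Sag the retained-intron transcripts went from 248 ± 48.4 to 618 ± 10.5 CPM and the others from 3937 ± 228 to 3021 ± 47.8 (SD, n = 3). The retained-intron transcripts are longer than the others in Sag (2611 against 1710 nt on average) and shorter in Prph2 (1384 against 2665 nt). With the length trend removed from both classes, 165 genes were called, 113 with a higher and 52 with a lower share, 119 of them shared in the same direction, and Sag (1.59) and Prph2 (2.10) passed.

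Other genes moved towards less intron retention. In Sptbn1, beta-II spectrin of the membrane skeleton, the share was 21.6, 30.1 and 15.2% in WT against 3.71, 2.92 and 3.51% in 5xFAD (-2.99 ± 0.34, adjusted p 0.00833). The WT libraries were widely spread, and all lay above the 5xFAD libraries. The spectrin transcripts without a retained intron went from 323 ± 58.7 to 621 ± 16.9 CPM (SD, n = 3). In Ginm1, a membrane glycoprotein, the share was 34.8, 31.8 and 20.4% in WT against 0.565, 0 and 0% in 5xFAD, where only replicate 1 was above 0 (adjusted p 0.0111). C2cd2l (1.43, 2.41 and 1.64% in WT against 5.83, 6.06 and 6.2% in 5xFAD, 1.82 ± 0.24) and Pitpnm3 (1.12, 0.811 and 1.03% in WT against 4.55, 4.88 and 4.62% in 5xFAD, 2.31 ± 0.32), both of phosphoinositide transfer, went up without overlap. Among splicing factors the highest odds ratio called was that of Tra2a, an SR-like protein named after its value was seen, at 12, 9.13 and 9.6% in WT against 47.1, 41.7 and 40.1% in 5xFAD (2.73 ± 0.41, adjusted p 0.0118), with all 5xFAD libraries far above the WT libraries. Without WT replicate 2 the calls of Sag, Ginm1, Pitpnm3, Prph2 and Tra2a were lost (adjusted p 0.0544 for the first 4), Tra2a also without 5xFAD replicate 1 (up to 0.0636). Those of Sptbn1 and C2cd2l were kept without any 1 of the 6 libraries (up to 0.0423). In the clock gene Per3 the share was 5.75, 4.3 and 4.88% in WT against 15, 11.7 and 15.3% in 5xFAD (1.63 ± 0.38, adjusted p 0.0473), and that call was lost without any 1 of the 6.

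**Figure D4:**
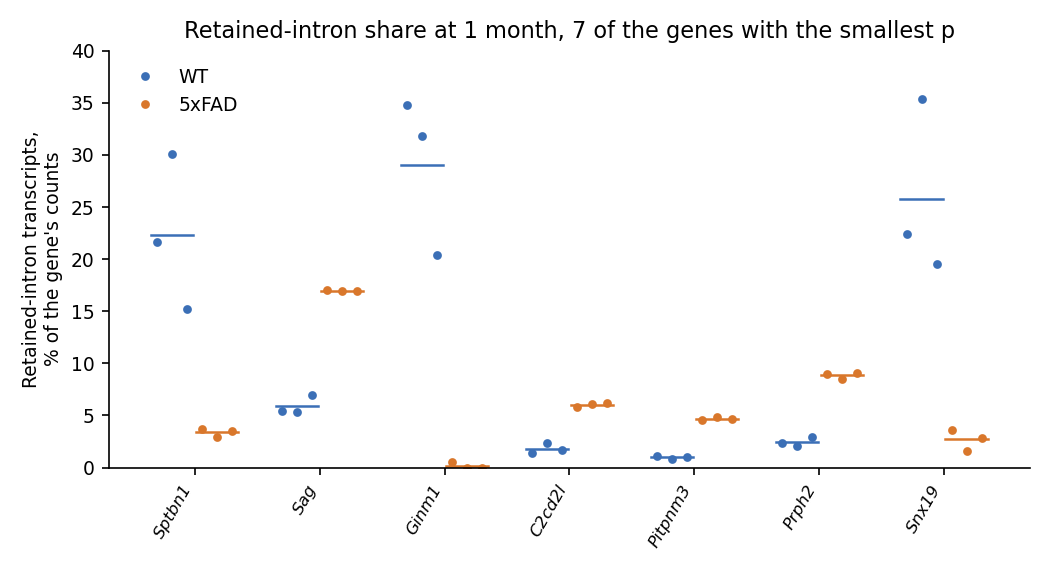
Share of each gene's counts in retained-intron transcripts, in percent, in each library at 1 month (WT blue, 5xFAD orange, bars at the means) for 7 of the genes with the smallest p. Sptbn1, Ginm1 and Snx19 lie lower in 5xFAD, and Sag, C2cd2l, Pitpnm3 and Prph2 lie higher, with little spread in 5xFAD.

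Single transcripts were called less often than genes, 1144 of 45326 (2.52%) without and 687 (1.52%) with the length trend removed. Of the 1144, 726 were higher (1.6%) and 418 lower (0.922%), and of the 687, 302 were higher (0.666%) and 385 lower (0.849%). The count of 687 fell to 407 without WT replicate 1, 205 without WT replicate 2, 283, 247 and 333 without 5xFAD replicates 1, 2 and 3, and was 701 without WT replicate 3. With the replicate number as a block it was 0 (6734 transcripts had an unadjusted p under 0.05 in the fit without the block). The largest changes were transcripts listed at 0 in all libraries of 1 genotype. A gene's reads are divided among its transcripts by estimation, so a transcript listed at 0 need not have been absent. Arhgap35-202, of a GTPase-activating protein, was at 0 in WT and at 72.9, 92.3 and 77.2 CPM in 5xFAD. No fold is given for such transcripts, since a listed 0 may come from that division of reads. The Arhgap35 gene as a whole did not pass (0.23 ± 0.09, adjusted p 0.11). Arid1a-201, of a chromatin remodelling subunit, was at 0 in WT and at 61.8, 80.5 and 89.2 CPM in 5xFAD. The other Arid1a transcripts summed to 147 CPM in WT and 140 in 5xFAD on average, and the gene did not pass (0.16 ± 0.09, adjusted p 0.331). In the other direction Acin1-219, of a splicing-associated protein, was at 90.7, 122.8 and 78.3 CPM in WT and at 0 in 5xFAD. Its other transcripts summed to 167 CPM in WT and 262 in 5xFAD on average, and the gene did not pass (-0.05 ± 0.08, adjusted p 0.753). Of the 12 transcripts chosen as the 6 largest changes in each direction, the gene as a whole passed for 1, Trim2 (0.31 ± 0.09, adjusted p 0.0235). Leaving out 1 library at a time, 6 of the 12 transcripts kept their calls throughout, among them those of Arhgap35, Arid1a, Trim2 and Acin1.

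In lists of very long and of short transcripts the calls changed most once the length trend was removed. The trend itself differed between the genotypes at 1 month. Removing it therefore also takes out any genotype difference that follows length, and the 2 were not told apart. The 24 large E3 ubiquitin ligase genes went from 15 higher and 0 lower to 2 and 5, the 41 histone lysine methylation enzymes from 17 and 2 to 3 and 7, and the 45 chromatin remodelling and acetylation genes from 18 and 2 to 1 and 4. With the trend removed 29.2%, 24.4% and 11.1% of these lists were called, beside 9.27% of all tested genes. In the longest of the 10 length classes 21% were called. Nedd4 rose in both fits, from 466, 404 and 512 CPM in WT to 751, 718 and 729.7 in 5xFAD (0.41 ± 0.07, adjusted p 7.74e-04). The histone demethylase gene Kdm5c rose (131, 129 and 139 to 203, 227 and 224 CPM, 0.39 ± 0.08), and Kdm1a, the demethylase LSD1, fell (105, 112 and 109 to 80.6, 79 and 69.7 CPM, -0.49 ± 0.10). In none of the 3 did the groups overlap. Mycbp2 (449, 358 and 399.7 CPM in WT against 392, 416 and 391 in 5xFAD) and Ubr4 (427, 383 and 447 CPM in WT against 450.4, 475 and 488 in 5xFAD) differed little in CPM between genotypes and were called lower only relative to genes of their length (-0.51 ± 0.08 and -0.46 ± 0.07). With exon number added to the correction Ubr4 turned to 0.016 (adjusted p 0.928). Lower calls among methylation enzymes came to 3 with 5xFAD replicate 2 left out, and those among chromatin genes to 1 with WT replicate 2 left out.

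At the short end, the 31 proteasome genes went from 0 higher and 17 lower to 0 and 3, and the 34 genes of glutathione, thioredoxin and peroxiredoxin from 0 and 17 to 0 and 3. The called shares became 9.68% and 8.82%, near the 9.27% of all tested genes. With 5xFAD replicate 3 left out 1 proteasome gene was called, and with WT replicate 1 left out none of the glutathione, thioredoxin and peroxiredoxin genes. The proteasome subunit gene Psmb1 fell in both fits, from 87.5, 88.8 and 75.1 to 54.8, 50.3 and 54.2 CPM (-0.47 ± 0.10, adjusted p 0.00449), with no overlap. Of 28 chaperone genes 4 rose and none fell (14.3% called, beside 9.27% of all tested genes). Hsp90b1, the chaperone GRP94 of the endoplasmic reticulum, read 363, 332 and 375 CPM in WT against 495, 449 and 496 in 5xFAD (0.43 ± 0.10, adjusted p 0.00591). Its partner Hspa5, or BiP (0.33 ± 0.09), Hspa8 (0.33 ± 0.09) and Hspa1a (0.38 ± 0.11) rose too, and each of these 3 lost its call without at least 3 of the 6 libraries (adjusted p up to 0.123, 0.0778 and 0.159). In the list of APP processing and Alzheimer risk genes 2 of 32 rose and 1 fell (7 and 0 without the correction), a called share of 9.38% that is near the 9.27% of all tested genes. Aplp2, the APP-like protein, read 785, 783 and 809 CPM in WT against 956, 918 and 997 in 5xFAD (0.25 ± 0.07, adjusted p 0.0231) and the sorting receptor Sorl1 92.6, 76.3 and 94.5 in WT against 145, 166 and 171 in 5xFAD (0.35 ± 0.10, adjusted p 0.0347), both without overlap. Lrp1, an endocytic receptor, fell by 0.31 on the log2 scale with the trend removed and was at 0.32 ± 0.12 without (adjusted p 0.033 and 0.0575). All 3 calls were lost without WT replicate 2 and without at least 2 other libraries (adjusted p up to 0.126, 0.155 and 0.221).

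**Figure D5:**
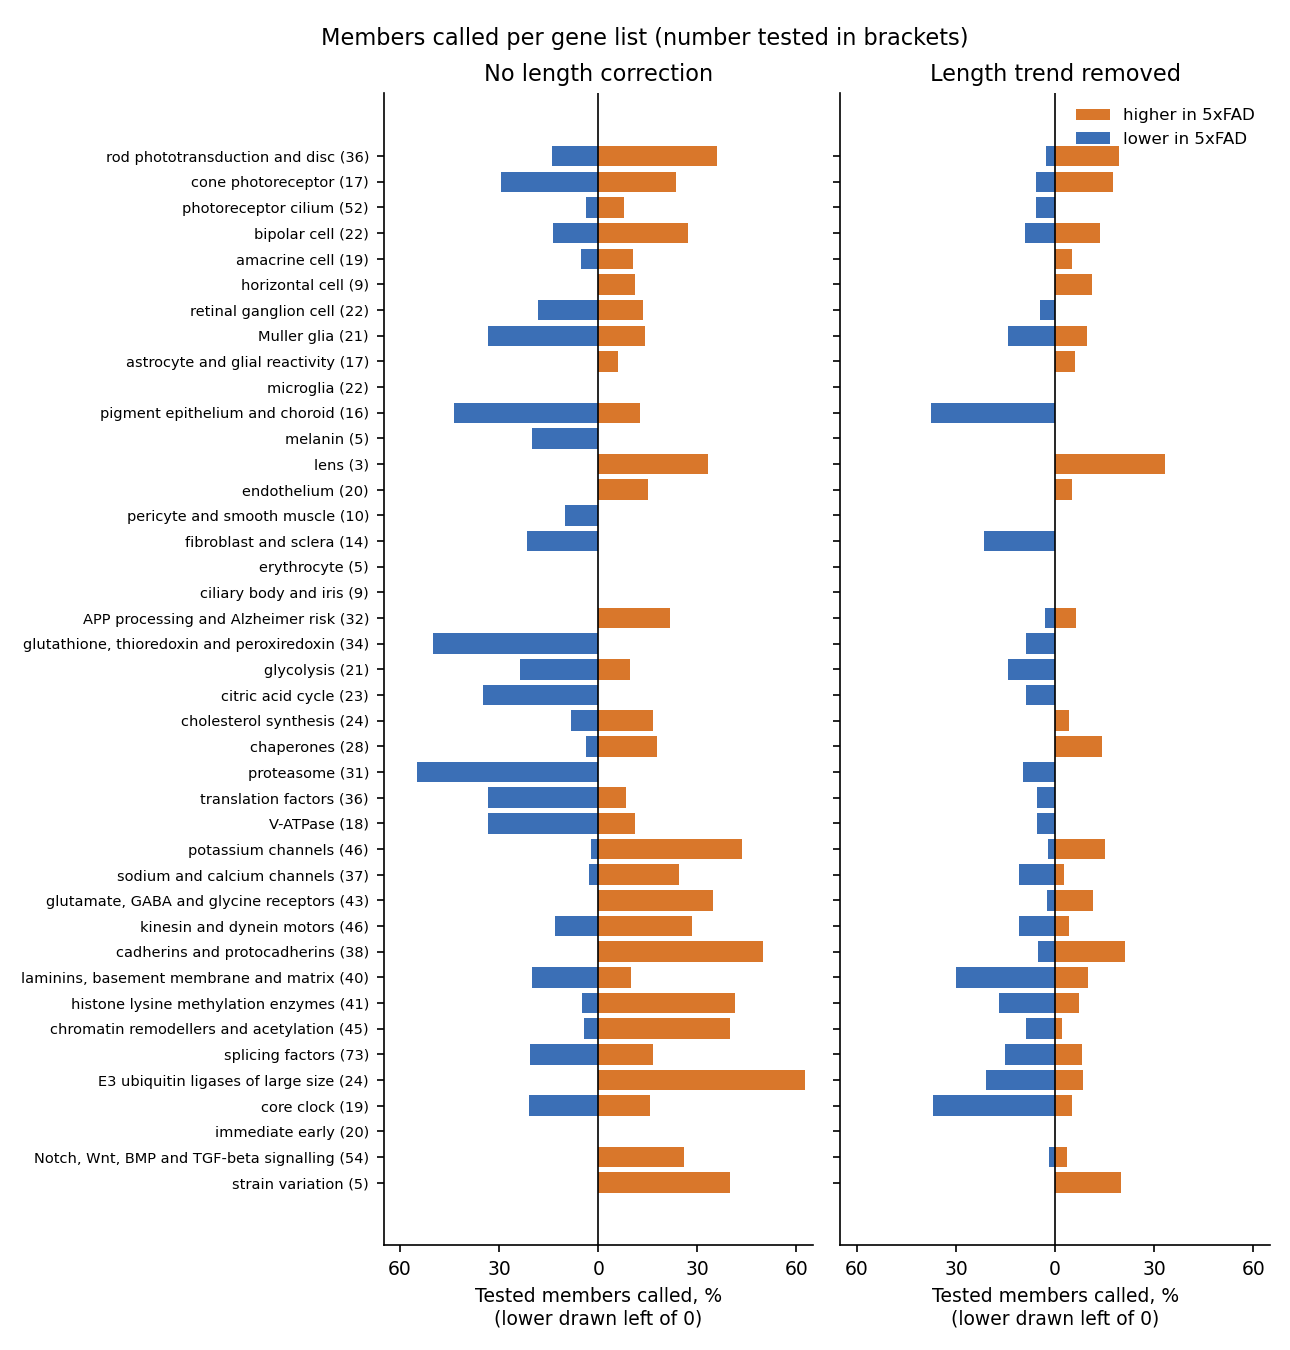
Share of the tested members of each gene list called higher (orange, right of 0) and lower (blue, left of 0) in 5xFAD retina at 1 month, in percent, without a length correction and with the length trend removed, with the number tested in brackets. Large E3 ligases, cadherins and potassium channels shrink from many higher calls, and the proteasome and antioxidant lists from many lower calls, while lower calls go from 4 to 7 in the clock list, 7 to 6 in the pigment epithelium list and 8 to 12 in the matrix list.

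The number of exons of a gene marked a further pattern, noticed after the values were seen. With the length trend removed, 3.68% of 435 coding genes with 1 exon fell, 5.19% of 3546 genes with 10 to 16 exons, 9.56% of 2175 genes with 17 to 30 exons and 20.3% of 590 genes with over 30 exons. Without the length correction 192 of the 590 genes were called higher and 36 lower, and of the 2175 genes 419 and 118. The falls are therefore relative to genes of similar length. Higher calls ran from 2.89% (5 to 9 exons) to 5.06% (17 to 30 exons) over all 6 exon classes, and within the longest of the 3 length classes from 8.55% (2 to 4 exons) to 5.09% (over 30 exons). Without the collagens, which have a median of 46.5 exons, the last class still held 17.6% lower of 556. Within the longest of the 3 length classes the share of lower calls was 3.74% at 1 exon and 19.6% over 30 exons. When exon number was added to the correction, 1456 genes were called and 18 collagen genes were called lower.

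Classes of loci that often lie inside coding genes gave more higher than lower calls. Of 451 tested genes of the class TEC, loci that await experimental support, 52 rose (11.5%, beside 3.82% of all tested genes) and 2 fell (0.443%, beside 5.45%), with a median log2 fold difference of 0.77, and 36 of the 52 lie within a coding gene on its strand, as do 219 of the 451. Of 58 sense-intronic genes 7 rose (12.1%) and 1 fell (1.72%), and all 7 lie within a coding gene on its strand, as do 57 of the 58. TEC genes took 0.205%, 0.196% and 0.203% of the counts in WT and 0.240%, 0.260% and 0.248% in 5xFAD, and sense-intronic genes 0.0431%, 0.0380% and 0.0422% against 0.0593%, 0.0602% and 0.0594%. In both classes every 5xFAD library lay above every WT library (exact permutation p = 0.1, the smallest possible). Where such a locus lies on the strand of its host gene, reads of the host's intron and of the locus cannot be told apart. The kit does not mark strand, so this holds for loci on the opposite strand too.

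Genes that vary between mouse strains were read because the strain labels differ. Of 5, Entpd4 rose (60.5, 58.2 and 69.7 CPM in WT, 83.9, 98.1 and 91 in 5xFAD, 0.48 ± 0.12, adjusted p 0.0107), and the call was lost without WT replicate 2 or 5xFAD replicate 2 (adjusted p up to 0.0702). Wdfy1, Crb1, Nnt and Pde6b did not pass. Nnt, which carries a deletion in C57BL/6J, read 10.7, 19.5 and 20.4 CPM in WT against 12.2, 3.59 and 1.26 in 5xFAD, with wide spread in both groups. Along the genome, the 10 Mb window with the highest share of called genes was chromosome 7, 60000001 to 70000000. It held 11 of 46 (23.9%, beside 9.27% of all tested genes), 6 higher and 5 lower. A window of the X chromosome followed with 15 of 63 (23.8%). The first was picked as the highest of all windows with at least 20 tested genes, so no regional pattern is read from its share. Of the 11, Ndn, an imprinted gene of neurons, fell from 151, 181 and 168 to 106, 111 and 94.7 CPM (-0.80 ± 0.12, adjusted p 1.46e-04) and A230057D06Rik by 0.65 on the log2 scale, and both were kept without any 1 of the 6 libraries. The other 9, among them Chrna7 (1.29 ± 0.37) and Igf1r (0.26 ± 0.08), each lost their call without at least 1 library (adjusted p up to 0.147 and 0.158).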

How the data were processed

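Gene and transcript tables of 12 libraries were used, 3 for each genotype and age. The values are expected counts, deposited by the authors without normalization. The submitters' processing notes name the build GRCm38.p6 and the tools RSEM 1.3.3, STAR 2.7.1a, DESeq2 1.32.0 and Trim Galore 0.6.6. Their roles and the annotation release are not given in the sources used here. Identifiers were matched to GENCODE M21 (55227 of 55487 genes, 141469 of 142699 transcripts).

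Counts were rounded and fitted over all 12 libraries with edgeR 4.0.16 (TMM scaling, its expression filter by group, robust quasi-likelihood test, Benjamini-Hochberg adjustment, 8 residual degrees of freedom), in R 4.3.3. For the length correction, a natural spline of 4 degrees of freedom on log2 transcript length, weighted by counts, was removed from each library as an offset. Standard errors were approximated from the fold change and the F statistic. CPM are scaled by TMM. Retained-intron shares were tested as the odds of counts in retained-intron against other transcripts, in genes with a mean of at least 10 counts per library in each class. The retained-intron classes follow the matched annotation. Estimated transcript counts depend on how RSEM divides shared reads, and read-length or degradation differences act through transcript length. The fits were tested on simulated data.

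The genes named were App and Thy1, the 8 largest changes in each direction, the 4 smallest p in each direction in each of 3 length classes, up to 4 members with the smallest p in each of 41 gene lists, genes that vary between strains, 6 transcripts in each direction, 6 retained-intron shares and the called genes of the 10 Mb window with the highest share called. For the first and second ranked sets a mean of at least 5 CPM and groups without overlap were required. Genes said to be named after their values were seen stand outside this rule, as do the collagen group, the exon-number classes and the interaction tests of genes other than the largest changes. The comparison, the members and the lists were chosen with earlier results of these data known. Alternatives tried were other scalings, filters, length measures, DESeq2 1.42.0, limma 3.58.1, the 6 libraries alone, each library left out and the replicate number as a block. Their effect is given at the end. A few genes that the rule names are not reported here.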

Additional observations from a re-analysis of the deposited data

Results flagged for a closer look

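Of the 16 largest changes at 1 month, 13 had a genotype difference that differed from that at 6 months by the interaction test in edgeR with the length trend removed, a test that 15.3% of all tested genes passed. The 16 were chosen by their difference at 1 month, which the contrast contains, so the count is a description and supports nothing. The values are the log2 genotype difference at 1 month minus that at 6 months. Among genes that rose at 1 month it was 4.42 in Glra1, 4.11 in Kcnh5, 3.85 in Kctd16, 3.34 in Shc3, 3.25 in Hipk2, 3.09 in Lrch4 and 2.65 in Xkr7. Among genes that fell it was -2.84 in Fabp4, -2.55 in Ap1g2, -2.49 in Col4a4, -2.09 in Col6a6, -1.95 in Col27a1 and -1.87 in Col11a1. Cryaa, Ttr and Rgr did not pass the same test. The mean transcript length, which was higher in 5xFAD at 1 month, moved the other way at 6 months, with 4018, 4022 and 3692 nt in WT and 3615, 3638 and 3720 nt in 5xFAD, and its part in these values beyond the removed trend was not tested.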

How the results depend on the processing

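Leaving out 1 library at a time gave 818 to 1354 genes called with the length trend removed and 1893 to 2868 without the correction, and 205 to 701 and 250 to 823 transcripts in the same order. List members called ranged from 101 to 162 around 160, and genes with a changed retained-intron share from 3 to 118 around 140. Of the 165 named genes called, 91 kept their call without any 1 of the 6 libraries. Calls that also changed at least 2-fold were 281 genes with the length trend removed and 481 without. Without the correction 364 list members were called. A minimum of 50 counts gave 302 retained-intron genes and the 6 libraries alone gave 65, and the cause was not tested.

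Same-numbered libraries did not deviate together at 1 month (correlations 0.04, 0.00 and -0.01). Whether they shared a step of preparation is not given in the labels and was not tested. With the replicate number as a block 1290 genes were called with the length trend removed and 2704 without it, but 0 and 3 transcripts. With exon number added to the length correction the sign turned in Lrp1 (0.094), Hspa1a (-0.017), Dync1h1 (0.025) and Ubr4 (0.016), where none was called. Without the length correction it turned in Rcvrn (-0.037), Gpr179 (0.079), Lrp1 (0.32), Dync1h1 (0.30), Crebbp (0.014), Ubr4 (0.17) and Hectd4 (0.22), of which Dync1h1 was called higher and the others were not called. Library-size scaling alone gave 34.7% of calls higher with the length trend removed, beside 41.2%, and the range over all settings was 34.7% to 48.4%. Without the correction the share was 54.5%, with a range of 49.4% to 61%. The depth of these libraries and 3 libraries a group limit what could be called among genes of few counts.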
